A study of Mus musculus with 14 samples.

Results

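The antigen presentation genes described here are 9 named members: B2m, H2-D1, H2-K1, Tap1 and Tapbp of the class I route, and Cd74, H2-Aa, H2-Ab1 and H2-Eb1 of the class II route. They were found by gene symbol among 25832 gene identifiers, and all 9 were present. B2m and Cd74 were chosen from the comparison of KO with WT cells itself, because both were lower in KO cells, so their difference is described without a test. The other 7 were chosen as their partners. The questions were whether the class I genes follow the lower B2m of KO cells and whether the class II genes follow Cd74.

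The study examined haematopoietic stem cells (HSCs) from mouse bone marrow, depleted of lineage-positive cells, with a knockout of Phf19, a Polycomb-associated protein. The values here come from single-cell RNA-seq by MARS-Seq, which sorts cells into the wells of a plate and counts transcripts through unique molecular identifiers (UMIs), on 4 plates of CD150+CD48- cells named 350W, 351W, 352W and 353W. Each plate held 96 wells whose names begin with WT and 96 whose names begin with KO. The plate labels give no genotype, so WT and KO are taken from these names. Elsewhere in the series, control means mice with the floxed allele and KO means Phf19 knockout. The sources used here do not give whether the WT wells are such floxed controls, which Cre was used, the age of the mice or whether plates are separate animals. The p-values therefore weigh the difference of KO from WT against its variation between these plates, which may be technical. Within each plate the WT cells occupied wells 1 to 96 and the KO cells wells 97 to 192, so genotype and well position cannot be told apart.

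Of 768 wells, 716 held at least 500 UMIs and were kept. Of the 52 left out, 49 were KO and 3 were WT. The summed UMIs per plate and genotype ran from 220821 to 510791, and the median UMIs per KO cell were 0.725 to 0.896 times those per WT cell of the same plate. Phf19 itself had 1, 0, 0 and 5 UMIs in the WT sums and 0, 2, 1 and 0 in the KO sums of plates 350W to 353W, too few to check the labels. Summed markers of HSCs were 1204 to 1976.6 UMIs per 1000000 (CPM) in WT and 1226.8 to 1912.8 in KO cells, with Hlf, a stem cell transcription factor, at 158 to 406 in the 8 sums. Plates 352W and 353W also carried immunoglobulin transcripts: the summed B cell markers were 11781.7 and 3341.9 CPM in their WT cells, against 103 and 137 in 350W and 351W. In a fit of summed counts with the plate as a block (edgeR's quasi-likelihood test with Benjamini-Hochberg adjustment), 6 of 6541 tested genes differed between KO and WT cells, which is 0.0917%. On simulated counts for this comparison the fit recovered 16% of genes changed by 1.5-fold and 66% of those changed by 2-fold. The simulation gave all genes the same spread beyond counting error and the same change on every plate. Its changed genes were drawn from all levels, so these rates are not those of a given member.

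Class I molecules display peptides made inside the cell. Each consists of a heavy chain, such as H2-K1 or H2-D1, bound to the small invariant light chain encoded by B2m, which most heavy chains need to reach the cell surface. The transporter subunit Tap1 carries peptides into the endoplasmic reticulum, where Tapbp (tapasin) helps to load them. Class II molecules display peptides taken up from outside. They pair an alpha chain such as H2-Aa with a beta chain such as H2-Ab1, and Cd74, the invariant chain, fills their groove until a peptide is loaded. Class II is best known from B cells, dendritic cells and macrophages, and lower levels occur on blood stem cells.

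The upstream sequences of B2m, the heavy chain H2-D1 and the class II chain H2-Aa are shown because all 3 carry the same bipartite element, and the questions ask whether such genes move together. They cover the 200 bases before the annotated start, from the RefSeq table for build GRCm38.p6, written 5′ to 3′ on the strand of the gene. Capitals mark TGACG and ATTGG of the X2 and Y elements and, in B2m and H2-D1, an interferon response element. In B2m, H2-D1 and H2-Aa they also mark the NF-kappaB consensus. B2m lies at chr2:122147487-122147686 on the plus strand, H2-D1 at chr17:35262894-35263093 on the plus strand and H2-Aa at chr17:34287824-34288023 on the minus strand.
B2m: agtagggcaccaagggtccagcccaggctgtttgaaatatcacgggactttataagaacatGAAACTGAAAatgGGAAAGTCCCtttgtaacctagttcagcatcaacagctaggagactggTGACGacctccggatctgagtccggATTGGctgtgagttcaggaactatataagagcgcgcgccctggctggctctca
H2-D1: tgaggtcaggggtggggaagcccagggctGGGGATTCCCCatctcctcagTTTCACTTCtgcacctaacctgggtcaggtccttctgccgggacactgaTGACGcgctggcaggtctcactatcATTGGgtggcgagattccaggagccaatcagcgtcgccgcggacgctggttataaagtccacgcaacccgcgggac
H2-Aa: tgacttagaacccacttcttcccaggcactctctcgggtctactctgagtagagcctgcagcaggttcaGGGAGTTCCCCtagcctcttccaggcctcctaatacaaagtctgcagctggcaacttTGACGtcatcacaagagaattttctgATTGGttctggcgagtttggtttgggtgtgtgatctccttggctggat

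Of the 9 members, 7 had their upstream sequence from the RefSeq promoter table searched. The promoters of Cd74 and H2-Ab1 were not searched, so nothing is said of their elements. The X2 and Y letters TGACG and ATTGG, searched on both strands with 19 to 22 bases between them, occurred in B2m, H2-D1, H2-K1 and H2-Aa. The same search matched 67 of 32544 promoter windows of the same length, which is 0.206%. The aligned elements were 30 bases long in the 3 class I genes and 31 in H2-Aa.
B2m element: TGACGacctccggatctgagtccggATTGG
H2-D1 element: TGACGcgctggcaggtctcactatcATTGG
H2-K1 element: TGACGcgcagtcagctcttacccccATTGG
H2-Aa element: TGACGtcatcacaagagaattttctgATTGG
The element ended 49 bases before the start in B2m, 72 in H2-D1 and 44 in H2-Aa. For H2-K1, whose table entry holds 2 starts, it ended 12 bases before the more upstream of them. An interferon response element, GAANNGAAA or GAAANNGAAA on either strand, was found in B2m, H2-D1 and H2-K1 and in 6.99% of all windows. The NF-kappaB consensus occurred in B2m, H2-D1, H2-K1 and H2-Aa and in 6.09% of all windows. The 3 kinds of match did not overlap in these windows. In an alignment that took in more than the 200-base windows, H2-D1 and H2-K1 were identical at 206 of 228 aligned bases, 90.4%. Tap1, Tapbp and H2-Eb1 had no spaced pair, interferon response element or NF-kappaB match in the window, though single TGACG or ATTGG letters occurred there. The search for the pair took exact letters only. H2-Eb1 holds TGATG in place of TGACG before ATTGG, within the spacing searched, so a near match is not excluded there. The matches describe letters and do not show binding.

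B2m was lower in KO than in WT cells on 4 of 4 plates, by very different amounts. In WT cells its level was 1949.4 CPM on plate 350W, 403 on 351W, 3163.4 on 352W and 1123.7 on 353W. In KO cells it was 1641.8, 186, 2866.6 and 578 CPM in the same order. The ranges of the genotypes overlapped widely, since the plates differed far more than the genotypes: the highest WT plate was 7.84 times the lowest, and the highest KO plate 15.5 times the lowest. The log2 ratio of KO to WT was −0.25 on 350W, −1.12 on 351W, −0.14 on 352W and −0.96 on 353W. Counting error alone left the 352W value open to 0, with a 95% interval of −0.29 to 0.0028. B2m was chosen for being lower in KO cells, so the counting intervals of its plates are a description and no test. The fit gave a log2 fold change of −0.54 with a standard error (SE) of 0.12 over the 4 plates. Without the plate block it was −0.32 with an SE of 0.807. In the blocked fit it ran from −0.70 when 352W was left out to −0.39 when 353W was left out.

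The heavy chain H2-K1 did not follow B2m. Its level in WT cells was 1038.8, 1088.5, 1070.2 and 1078.7 CPM on plates 350W to 353W. In KO cells it was 970, 1167.5, 1014.4 and 1028 CPM. The counting intervals of all 8 values overlapped, and KO was lower on 3 plates and higher on 351W, the plate with the largest relative difference in B2m. The fitted log2 fold change was −0.03 (SE 0.079, edgeR adjusted p = 0.969), with an approximate 95% interval of −0.19 to 0.12. B2m was chosen from this contrast, so its fitted value is no yardstick for that interval. Between the WT plates H2-K1 varied by a coefficient of variation of 2.01%, below the 4.94% that counting error gives at its UMI counts. Of the 377 genes with a mean of at least 300 CPM in WT cells, none had a smaller ratio of highest to lowest plate than the 1.05 of H2-K1. The median of these genes was 1.63, and 31 of them varied more than B2m.

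H2-D1, the other classical heavy chain here, was higher in KO than in WT cells on 4 of 4 plates. Its WT levels were 667, 736, 554 and 515 CPM and its KO levels 744, 812, 639 and 596 CPM on plates 350W to 353W. The plate log2 ratios lay close together, at 0.16, 0.14, 0.20 and 0.21, and each counting interval included 0. The fitted log2 fold change was 0.18 (SE 0.090), which did not pass the test (edgeR adjusted p = 0.8). Of all tested genes, 7.83% were higher in KO cells on 4 of 4 plates and 7.75% lower on 4 of 4, and each of these sets held 1 of the 7 partners, H2-D1 and H2-Aa. H2-K1 and H2-D1 are near-identical paralogues, and the sources used here do not say how shared reads were assigned, so the split between them is uncertain. Their sum per B2m UMI does not depend on that split, but it would change if shared reads were dropped or given to other genes. B2m was chosen for being lower in KO cells, so a higher ratio there follows from the choice and the values are a description. WT cells had 0.875, 4.52, 0.513 and 1.42 heavy chain UMIs per B2m UMI, and KO cells had 1.04, 10.7, 0.577 and 2.81. These ratios are of 3′ tag counts, not of molecules per length.

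**Figure D1:**
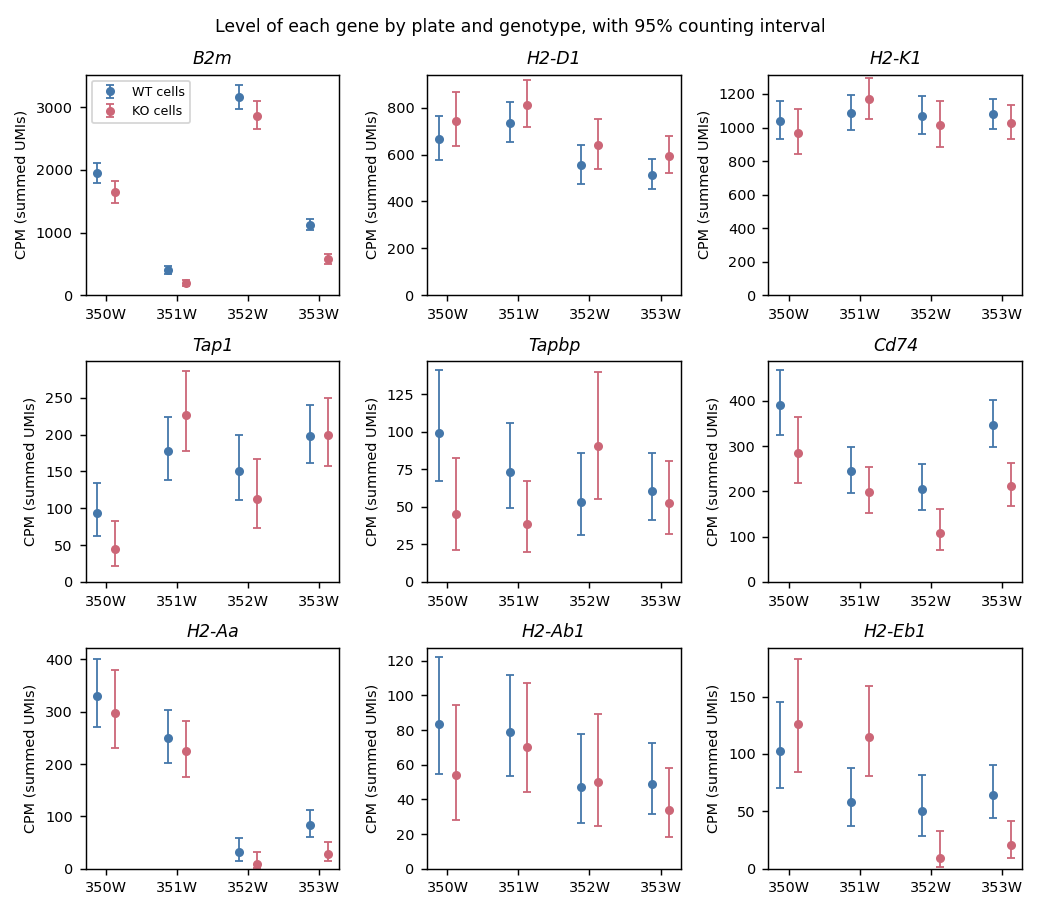
CPM of summed UMIs (y axis) of the 9 genes on each plate (x axis), with WT cells in blue and KO cells in red; bars are 95% Poisson intervals, which cover counting error only. H2-K1 stays between 970 and 1167.5 CPM in all 8 sums, while B2m runs from 186 to 3163.4 CPM.

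**Figure D2:**
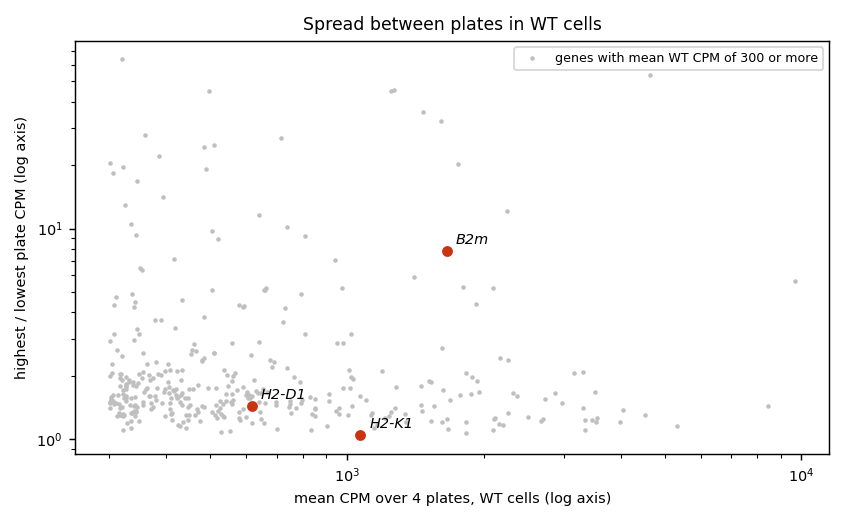
Ratio of the highest to the lowest plate in WT cells (y axis, log) against mean CPM (x axis, log) for genes with a mean of 300 CPM or more; red points are the 3 members among them, and genes at 0 CPM on a plate are not drawn. H2-K1 lies at 1.05, below all other genes, and B2m at 7.84.

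The other class I heavy chains were not called either. Of 12 listed, 7 were tested and none was called in either direction, beside 0.0917% of all tested genes. Their median log2 fold change was 0.18 against −0.0041 for all tested genes. H2-T23, a non-classical heavy chain that presents leader peptides, was at 404, 429, 365 and 450 CPM in WT and 519, 557, 389 and 521 CPM in KO cells. It was higher in KO cells on 4 of 4 plates, but its log2 fold change of 0.27 (SE 0.105) did not pass (edgeR adjusted p = 0.721). H2-T22, named after its values were seen, was also higher on 4 of 4 plates, at 28.3 to 55.8 CPM in WT and 31.7 to 109 in KO cells. With H2-D1, 3 of the 7 tested were higher on 4 of 4 plates, beside 7.83% of all tested genes, and the set was not tested. H2-Q7 had a log2 fold change of −0.04 and H2-Q6 of 0.19, neither past the test. The H2-T and H2-Q genes too are close paralogues, and their counts carry the same uncertainty. H2-M3, also named after its values were seen, had a log2 fold change of 0.02 (SE 0.378). It was lower in KO cells on 350W and 351W and higher on 352W and 353W.

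Tap1 and Tapbp, which supply and load peptides, showed no shared direction. Tap1 was at 93, 178, 151 and 198 CPM in WT cells and 45.1, 227, 113 and 199 CPM in KO cells on plates 350W to 353W. KO was lower on 2 plates and higher on 2, and the log2 fold change was −0.09 (SE 0.193, edgeR adjusted p = 0.961). Without the well with the most Tap1 UMIs in each set, KO was lower on 3 plates, with a log2 ratio of −0.02 on 353W. Tapbp was at 99.4, 73.6, 53.5 and 60.7 CPM in WT and 45.1, 38.4, 90.6 and 52.3 CPM in KO cells. Its log2 fold change was −0.36 (SE 0.305, edgeR adjusted p = 0.899), and KO was higher on 352W. Each Tapbp value rests on 10 to 31 UMIs, and on 352W 41.2% of the WT UMIs came from 1 well. On 350W it was 35.5%.

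Of 13 genes listed for class I peptide supply, 11 were tested and none was called, beside 0.0917% of all tested genes. None was lower or higher on 4 of 4 plates, beside 7.75% and 7.83% of all tested genes, and the set was not tested. The median log2 fold change was −0.07. Psmb8, a catalytic subunit of the immunoproteasome, was at 362 to 743 CPM in WT and 316 to 729 in KO cells, with a log2 fold change of 0.01 (SE 0.098). Psme1, a proteasome activator subunit, had −0.10, the chaperone Calr −0.02 and the immunoproteasome subunit Psmb9 −0.07. The third such subunit, Psmb10, had the most negative value of this list at −0.36 (SE 0.218, edgeR adjusted p = 0.838).

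**Figure D3:**
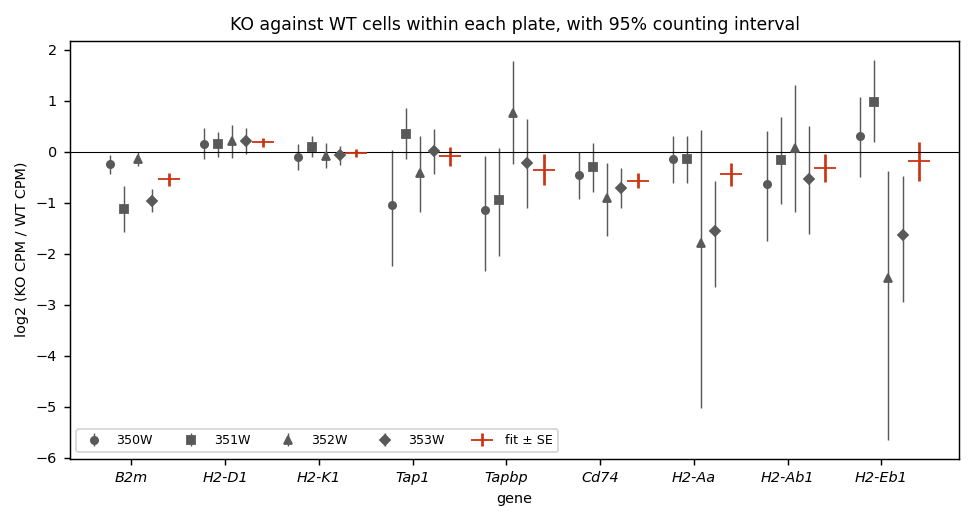
Log2 ratio of KO to WT CPM (y axis) for each gene (x axis); grey symbols are the 4 plates with 95% counting intervals, and red bars are the fitted value with its SE. All 4 plates are below 0 for B2m, Cd74 and H2-Aa and above 0 for H2-D1.

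Of the 5 genes most alike to B2m, 3 belong to the mitochondrial genome and none is a partner chain. Over the 8 sums, the tested genes most alike to B2m by Pearson correlation of log2 CPM were Gm13341 (0.995), mt-Rnr1 (0.995), Gm28661 (0.992), mt-Co2 (0.992) and mt-Atp6 (0.992). The mt-Rnr1, mt-Co2 and mt-Atp6 genes encode a mitochondrial ribosomal RNA, a cytochrome oxidase subunit and an ATP synthase subunit. In WT cells Gm28661 was at 1048.5, 71, 3229.5 and 722 CPM, close to mt-Co2 at 1086.9, 71, 3179.1 and 654. Whether such genes share reads was not tested. Of the 59 genes at 0.95 or more, 12 were mitochondrial, of 13 mitochondrial genes tested. Nuclear genes had the pattern too: Npm1 and Rps24, named after their values were seen, each had a correlation of 0.968. Npm1 was at 721, 99, 878 and 380 CPM in WT and 636, 22.4, 1009.9 and 285 in KO cells. Rps24 was at 1814.8, 784, 3418.4 and 1656.3 CPM in WT and 1425.3, 320, 3559.4 and 1119.5 in KO cells. The pattern was thus not particular to mitochondrial genes. The same measure between B2m and H2-K1 was 0.04, and between B2m and H2-D1 −0.29. These correlations describe 8 sums that share plates and depth, with no test.

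mt-Rnr1 was at 4238.7, 226, 12150 and 1955.8 CPM in WT and 3851.9, 92.8, 12014.3 and 777 CPM in KO cells on plates 350W to 353W. Its plates stood in the order of those of B2m: 352W highest, then 350W, 353W and 351W. The log2 ratio of KO to WT for mt-Rnr1 was −0.14, −1.28, −0.02 and −1.33, beside −0.25, −1.12, −0.14 and −0.96 for B2m. Plates 351W and 353W thus had the larger difference in each. Summed over 26 mitochondrial genes, the share of UMIs was 2.65%, 0.623%, 5.83% and 1.72% in WT and 2.88%, 0.253%, 6.11% and 0.998% in KO cells. It was slightly higher in KO cells on 350W and 352W, where B2m was still lower. With the mitochondrial genes left out of totals and tests, an alternative added after seeing the data, the log2 fold change of B2m was −0.53. Only genes with symbols beginning with mt- were left out, so Gm13341 and Gm28661 stayed in. The part of the mitochondrial transcripts in the B2m result was not tested.

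Between single cells the relation was weak. With each cell thinned to 1000 UMIs, the Spearman correlation of B2m UMIs with mitochondrial UMIs ran from −0.02 to 0.32 in the 8 sets of cells. Patl2 overlaps B2m in the RefSeq annotation of GRCm38.p6 and was looked up for that reason after the values were seen. It was at 317, 83.7, 500 and 192 CPM in WT and 356, 54.4, 489 and 144 CPM in KO cells, and its correlation with B2m over the 8 sums was 0.991. The sources used here do not say whether counting used strand, so reads from B2m and Patl2 cannot be told apart. Patl2 was higher in KO than in WT cells on 350W and lower on the other 3 plates.

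**Figure D4:**
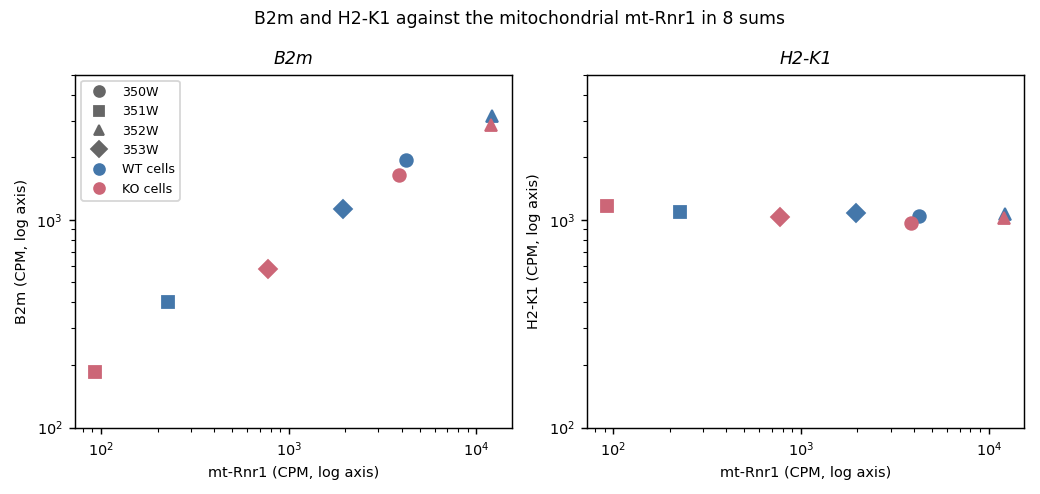
B2m (left) and H2-K1 (right) in CPM (y axes, log) against mt-Rnr1 in CPM (x axes, log), with 1 point for each plate and genotype. B2m is higher where mt-Rnr1 is higher, from 186 to 3163.4 CPM, while H2-K1 lies between 970 and 1167.5 CPM.

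The share of cells with a B2m UMI was lower in KO cells on 3 of 4 plates and 100% in each genotype on 352W. At the depth deposited it was 97.9%, 54.2%, 100% and 93.7% in WT and 83.7%, 37.1%, 100% and 81.2% in KO cells on plates 350W to 353W. After thinning each cell to 1000 UMIs, which left out 4 WT and 18 KO cells of those kept, it was 76.6%, 33.7%, 93.7% and 66.7% in WT cells. In KO cells it was 67.8%, 21.7%, 91.2% and 46.1%, lower on 4 of 4 plates. The exact 95% binomial intervals of the genotypes overlapped on every plate, on 353W from 56.1% to 76.1% in WT and 34.5% to 57.9% in KO cells.

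H2-K1 gave 60.6%, 61.1%, 68.4% and 60.2% of thinned WT cells and 53.3%, 65.1%, 67.6% and 67.1% of thinned KO cells. H2-D1 gave 46.8%, 44.2%, 44.2% and 33.3% in WT and 44.4%, 42.2%, 52.9% and 44.7% in KO cells. Neither was lower or higher on 4 of 4 plates. The share with H2-K1 had overlapping intervals in cells with and without a B2m UMI in all 8 sets. In WT cells of 351W it was 62.5% of those with B2m, between 43.7% and 78.9%, and 60.3% of those without, between 47.2% and 72.4%. H2-D1 and H2-K1 together had a UMI in 91.3% to 97.8% of cells at the depth deposited in all 8 sets, so class I heavy chains were detected in nearly all cells of either genotype.

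Cd74 was lower in KO cells on 4 of 4 plates. Its WT levels were 391, 244, 205 and 347 CPM and its KO levels 284, 198, 109 and 212 CPM on plates 350W to 353W. The plate log2 ratios were −0.46, −0.30, −0.91 and −0.71, with a counting interval that includes 0 on 351W. As Cd74 too was chosen for being lower, these intervals are no test. The ranges of WT and KO levels overlapped, from 205 to 391 and from 109 to 284 CPM. The fitted log2 fold change was −0.57 (SE 0.139), and it was −0.49 to −0.65 when a plate was left out. Without the wells of over 100 immunoglobulin UMIs it was −0.42. Those were 7 wells on 352W and 1 on 353W. On 352W, 24.6% of the WT UMIs of Cd74 came from 1 well.

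H2-Aa, the alpha chain of I-A, was lower in KO cells on 4 of 4 plates without passing the test. Its WT levels were 330, 249, 31.5 and 84.2 CPM and its KO levels 298, 224, 9.06 and 28.8 CPM. The plates formed a high pair, 350W and 351W, and a low pair, 352W and 353W, in WT and in KO cells. The log2 ratios were −0.15 and −0.15 on the high pair and −1.80 and −1.55 on the low pair. On 352W the ratio rests on 10 WT and 2 KO UMIs, with a counting interval of −5.03 to 0.43. The fitted log2 fold change was −0.44 (SE 0.222, edgeR adjusted p = 0.8), and it was −0.65 to −0.23 when a plate was left out.

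The beta chains did not share one direction with Cd74. H2-Ab1, the partner of H2-Aa, was at 83.4, 78.7, 47.2 and 48.9 CPM in WT and 54.1, 70.4, 49.8 and 34 CPM in KO cells. KO was lower on 3 plates, and the log2 fold change was −0.31 (SE 0.273, edgeR adjusted p = 0.9). Without the well with the most H2-Ab1 UMIs in each set, KO was lower on 4 of 4 plates, by a log2 ratio of only −0.06 on 352W. The same removal for H2-Eb1 left KO lower on 2 plates. H2-Eb1, the beta chain of I-E, was at 103, 58.4, 50.4 and 64.6 CPM in WT and 126, 115, 9.06 and 20.9 CPM in KO cells. Its plate log2 ratios were 0.30, 0.98, −2.48 and −1.63, higher in KO cells on 350W and 351W and lower on 352W and 353W. The counting interval excluded 0 on 351W, 352W and 353W, in opposite directions. The fitted value of −0.19 (SE 0.376, edgeR adjusted p = 0.961) averages over this split, and it was 0.08 without 352W and 0.20 without 353W.

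Set beside each other over the 8 sums, Cd74 and H2-Eb1 had a Pearson correlation of log2 CPM of 0.73, Cd74 and H2-Aa 0.70, and Cd74 and H2-Ab1 0.24. The 5 tested genes most alike to Cd74 included Cadps (0.952), Immp2l (0.94), Jakmip2 (0.938) and Flt1 (0.935). None of the other 8 members was among the 5. WT cells had 0.844, 1.02, 0.154 and 0.243 H2-Aa UMIs per Cd74 UMI, and KO cells 1.05, 1.13, 0.0833 and 0.136. The ratio thus separated plates rather than genotypes.

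UMIs of the 3 class II chains were spread over many wells. At the depth deposited, 71.6%, 59.4%, 26.3% and 41.1% of WT cells and 54.3%, 59.6%, 14.9% and 21.2% of KO cells held at least 1. After thinning the shares were 38.3%, 23.2%, 11.6% and 12.9% in WT and 26.7%, 30.1%, 8.82% and 15.8% in KO cells, lower in KO on 2 plates. The well with the most class II chain UMIs held 6.83% to 20% of them in the 8 sets. Cd74 was detected in 26.6%, 23.2%, 10.5% and 30.1% of thinned WT cells and 23.3%, 15.7%, 10.3% and 22.4% of thinned KO cells. H2-Aa was detected in 25.5%, 16.8%, 5.26% and 5.38% of thinned WT cells and 20%, 22.9%, 1.47% and 6.58% of thinned KO cells. A level of background from free RNA was not measured in these plates.

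**Figure D5:**
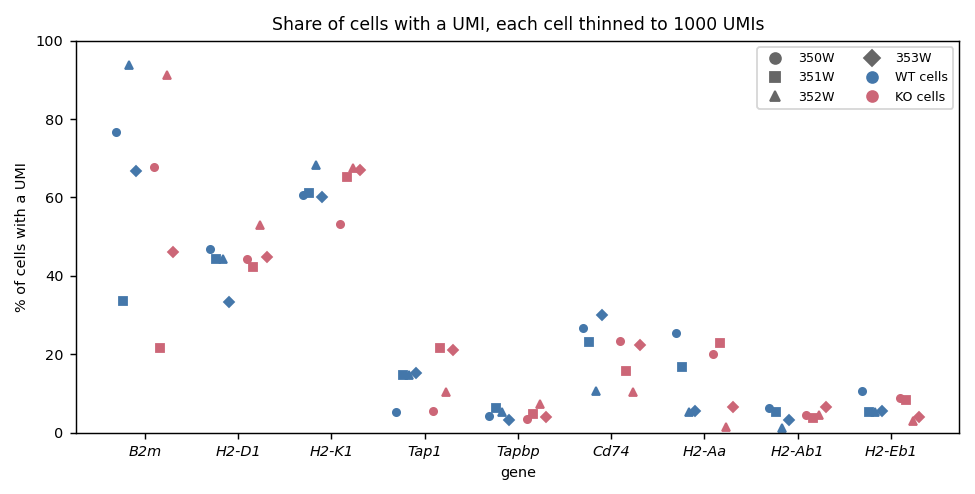
Share of cells with at least 1 UMI (y axis, percent) for each gene (x axis) after thinning each cell to 1000 UMIs; symbols are plates, WT cells are blue and KO cells red. H2-K1 spans 53.3% to 68.4%, and B2m spans 21.7% to 93.7%.

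Markers of cells rich in class II were given the same reading. Summed B cell markers, 9 of 10 in the tables, ran from 103 to 11781.7 CPM in WT and 54.1 to 8445.8 in KO cells, lower in KO on 3 of 4 plates. Most of it on 352W and 353W was Ighm and Igkc, while Cd79b was at 13.5 to 83.2 CPM and Ebf1 at 18 to 50.4 in the 8 sums. Cd79a, at 0 to 9.44 CPM, and Pax5, at 0 to 12.6, were named after their values were seen. The plates with the immunoglobulin transcripts were those with the least H2-Aa. Ighm, the mu heavy chain, was lower in KO cells, with a log2 fold change of −1.10, an SE of 0.181 and an edgeR adjusted p of 0.0246. Without the wells of over 100 immunoglobulin UMIs its value was −0.08, with an edgeR adjusted p of 0.993.

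Summed dendritic markers, 9 of 10 in the tables, were 558 to 866 CPM in WT and 505 to 788 in KO cells. Cst3 was at 244 to 441 CPM, Bst2 at 59.8 to 202 and Zbtb46 at 18.1 to 51.3 in the 8 sums. Flt3 was at 0 to 30.4 CPM on 350W and 351W and at 154 to 368 on 352W and 353W, and Ly6d was at 0 on the first pair and at 5.23 to 104 on the second. The dendritic markers Itgax and Batf3, named after their values were seen, had UMIs in 1 sum each, at 4.53 and 4.51 CPM. Summed monocyte and macrophage markers were 152 to 311 CPM in WT and 179 to 311 in KO cells. Lyz2 was at 40.9 to 115 CPM, Ly86 at 17.8 to 80.3 and F13a1 at 13.6 to 44.9 in the 8 sums. The macrophage gene C1qa, named after its values were seen, was at 0 in 7 of them. The part of such cells in the class II levels was not tested.

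Of 12 genes listed for class II and its peptide loading, 7 passed the filter on low counts. Cd74, chosen from this contrast, is not counted. None of the other 6 was called, beside 0.0917% of all tested genes. H2-Aa and Ctss were lower in KO cells on 4 of 4 plates, beside 7.75% of all tested genes, and the set was not tested. The median log2 fold change of the 7, Cd74 included, was −0.31 and is a description. Ctss, the protease that trims the invariant chain, was at 51.3, 76.1, 157 and 78.3 CPM in WT and 49.6, 48, 109 and 68 CPM in KO cells. Its log2 fold change was −0.38 (SE 0.236, edgeR adjusted p = 0.839). H2-DMa, a chain of the peptide exchange factor, had −0.08.

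Among 18 listed regulators of these genes, 8 were tested and none was called, beside 0.0917% of all tested genes. Their median log2 fold change was −0.03. Irf1, an interferon-induced activator of class I genes, had −0.32, Irf2 −0.22 and the kinase Jak1 −0.25, none past the test. Of the 8 tested, 1 was higher and 1 lower in KO cells on 4 of 4 plates, beside 7.83% and 7.75% of all tested genes. The higher one, Rfx5, was named after its values were seen. It was at 138, 50.7, 0 and 5.87 CPM in WT and 171, 51.2, 4.53 and 15.7 in KO cells. Its log2 fold change was 0.40 (SE 0.357, edgeR adjusted p = 0.906). Rfxap, a subunit of the factor that binds the X box, was at 519 CPM in WT and 394 in KO cells of 352W and at 12.8 to 27.9 on the other plates. Ciita, the class II transactivator, was named after its values were seen. It was at 12.8 and 20.3 CPM in the WT cells of 350W and 351W, the plates with more H2-Aa, and had no UMI in those of 352W and 353W or in any KO sum. A count of 0 allows up to 13.5 CPM in the KO cells of 350W and 9.6 in those of 351W, so a difference was not detectable at this depth on 350W, while the WT level on 351W was above that limit.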

How the data were processed

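MARS-Seq UMI counts of 4 plates were used as the authors deposited them: whole-number counts per gene and cell, not normalized. The build was GRCm38.p4, per the submitters' processing notes, which also name FastQC; the sources used here name no aligner or counter. Of 25832 gene identifiers, 25714 had a symbol. Cells with under 500 UMIs were left out, and counts were summed per plate and genotype. CPM are UMIs per 1000000 of that sum. Sums were fitted in edgeR 4.0.16 (filterByExpr, TMM, quasi-likelihood test, plate as a block, Benjamini-Hochberg over 6541 genes, threshold 0.05). The block was chosen knowing from an earlier analysis that calls depended on it; the plate pairs the sums because both genotypes were processed on it. SE is the fold change over the square root of F. Plate ratios have exact binomial, levels exact Poisson and shares exact Clopper-Pearson 95% intervals, which cover counting error only; reads are collapsed by UMI. Thinning drew 1000 UMIs per cell once with a fixed seed. Doublets were not called, and no cell name was shared between plates. The fit was tested on simulated data, with 8 false calls of 149.

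Members, gene lists and tests were chosen with earlier results of these data known. Named genes were the members, in each pathway list the called genes and up to 5 by mean CPM, up to 5 per marker list, and the 5 most alike to B2m and to Cd74. Of the other marker lists, the 10 tested HSC, 2 neutrophil, 2 T and NK cell, 3 megakaryocyte and 3 erythroid genes gave no call. The share called over all tested genes was 0.0917%. Alternatives were DESeq2 1.42.0, other scalings and filters, thinning and each plate left out. The H3K27me3 region lists, in mm9, were not used here. Bulk RNA-seq and ATAC-seq were not analysed here. Values of 2 genes that the naming rule picks are not reported here.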

Additional observations from a re-analysis of the deposited data

Results flagged for a closer look

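The shares of 3 genes lay apart from the other WT plates by Dixon's 95% criterion for 4 values, out of 36 sets of 4 tested, where chance flags about 1 in 20. After thinning, H2-K1 was detected in 68.4% of the WT cells of 352W against 60.2% to 61.1% on the other plates. Tap1 was detected in 5.32% of those of 350W against 14.7% to 15.1%. H2-Eb1 was detected in 10.6% of those of 350W against 5.26% to 5.38%. The binomial intervals of these shares overlapped those of the other plates.

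The wells left out for holding under 500 UMIs, 49 of them KO, still held transcripts of the members. The KO wells had 20 B2m UMIs, 16 of H2-D1, 22 of H2-K1, 5 of Tap1 and 6 of Cd74 among 15372 UMIs. This corresponds to 1301.1 CPM for B2m and 1431.2 for H2-K1, beside 1121.8 and 1052.3 in the kept KO cells of all plates.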

How the results depend on the processing

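Without the replicate block, 0 genes were called between KO and WT cells in place of 6 (86 at an unadjusted p under 0.05, and 1 gene called by DESeq2 with the block). The count was 26 with no filter on genes, 3 with all cells kept, 2 when wells rich in immunoglobulin were dropped and 2 of 1603 genes after thinning. With a plate left out it ran from 2 (353W) to 12 (352W). None of the 7 partners of B2m and Cd74 was called under any alternative that gave them a value: all 14 for H2-D1, H2-K1, Tap1 and H2-Aa, and 13 for Tapbp, H2-Ab1 and H2-Eb1, whose counts were too low after thinning. The cause of the changes in the count of genes was not tested.

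The log2 fold change of B2m was −0.32 without the block and ran from −0.70 to −0.39 with a plate left out. That of Cd74 was −0.42 without the immunoglobulin wells. Those of H2-K1 and Tap1 turned positive after thinning, at 0.04 and 0.23. Tap1 was also positive without 350W (0.05) and without 352W (0.00), with a range of −0.30 to 0.05 when a plate was left out. H2-Eb1 was positive without 352W (0.08) and 353W (0.20), with a range of −0.75 to 0.20. H2-D1 stayed at 0.17 to 0.26 in all 14. Of the 162 recomputed mean CPM values, 161 moved by less than 1 SD between plates. The exception was the WT mean of H2-K1, 1045.9 CPM without the well richest in it in each plate. Depth limits Tapbp, H2-Ab1 and H2-Eb1, with 2 to 36 UMIs per sum.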
